A study of Homo sapiens with 12 samples.

Results

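The unperturbed state of Z-138, an established cell line from mantle cell lymphoma, was read from the 3 control libraries that received DMSO, out of 12 libraries in the series. They were chosen by their labels, and every one of the 13820 gene rows of the count table was used. The cells carried a control shRNA, named SCR in the labels, were kept with doxycycline, and received DMSO, the drug solvent, with no drug. The medium was IMDM with 10% fetal calf serum. The other 9 libraries, from cells with an shRNA against SMARCA4 or with 3 µM ibrutinib plus 3 µM venetoclax, were not used here. The group is therefore a single line that carries an shRNA construct and doxycycline, and a parental library without them is not analysed here. The sources used here do not give the vector or sequence of the control shRNA, or say whether the 3 replicates were separate cultures, so the SD given here measures the spread between these libraries, which may be technical.

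Mantle cell lymphoma is a malignancy of mature B lymphocytes. It is defined in most cases by a translocation that places CCND1, the gene of the cell cycle regulator cyclin D1, under the control of the immunoglobulin heavy chain locus, and most cases also switch on the neural transcription factor gene SOX11. Its cells depend on signals from the B cell receptor, which pass through the kinases LYN, SYK and BTK to NF-κB, and on the BCL2 family, in which survival proteins hold the pore-forming proteins BAX and BAK in check. Ibrutinib blocks BTK and venetoclax blocks BCL2. SMARCA4 is an ATPase of SWI/SNF, a complex that moves nucleosomes.

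Levels are given in CPM, a gene's counts scaled to a total of 1000000 counts per library, and means are given ± SD over the 3 libraries (n = 3 throughout). The libraries held 10151679, 8307729 and 8480698 counts. The QuantSeq protocol reads the 3' end of each transcript, so a count stands for a transcript end and CPM values were compared between genes without division by length. Differences in priming and in the uniqueness of the 3' end were not measured. One CPM corresponds to 8.31 to 10.2 counts, and the limit that a count of 0 allows (3 counts) lies at 0.296, 0.361 and 0.354 CPM. These limits cover counting error only. Genes were placed in 5 bands: near zero (under 1 CPM), low (1 to 10), moderate (10 to 100), high (100 to 1000) and very high (1000 or more). Near zero held 1609 rows (11.6%), low 4645, moderate 5996, high 1459 and very high 111. The median row stood at 13.0 CPM, with quartiles at 2.52 and 44.2 CPM. Only 8 rows had no count in any of the 3 libraries. A gene of interest with no row in the table has no value here, and the sources used here do not state by what rule rows entered the table.

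Ribosomal protein genes, mitochondrial genes and a few others, CCND1 among them, made up the most abundant rows. Apart from the 18S and 28S ribosomal RNA rows RNA18S5 (74486 CPM) and RNA28S5 (17057 CPM) and the mitochondrial ribosomal RNAs MT-RNR2 (16873 CPM) and MT-RNR1 (9943 CPM), the highest was MT-CO3, a mitochondrially encoded subunit of cytochrome c oxidase, with 14648, 13399 and 13334 CPM. RPL27A (9798 ± 563 CPM) and RPS27A (7977 ± 58.7 CPM), a ribosomal protein made as a fusion with ubiquitin, led the nuclear coding genes. They were followed by the nuclear noncoding RNA MALAT1 (7148 ± 361 CPM) and by PTMA (7137 ± 310.3 CPM), which encodes prothymosin alpha, a chromatin protein of dividing cells. RPL37A, CHCHD2, RPS14, MT-ATP6, RPS12, MT-ND4, MT-ND2, HSP90AB1, RPLP1, CCND1 and MT-ND3 completed the first 20 rows, from 7126 down to 4380.3 CPM. HSP90AB1, a chaperone of kinases and other signalling proteins, stood at 4716 ± 159 CPM. CCND1 (ENSG00000110092) held rank 19 of 13820, and no other gene of the B cell or lymphoma lists was among the first 20.

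The counts were concentrated in few rows. The 10 most abundant rows took 17.1% ± 0.235 of all counts, the first 100 took 38.9% ± 0.189 and the first 1000 took 68.9% ± 0.213. The 18S and 28S rows held 9.15% ± 0.308, the 2 mitochondrial ribosomal RNAs 2.68% ± 0.0711, the 13 mitochondrially encoded mRNAs 4.78% ± 0.149 and the 78 cytosolic ribosomal protein rows 13.7% ± 0.186. Protein-coding rows, 11153 in all, held 84.9% ± 0.265, and their median was 19.7 CPM. The 1386 long noncoding rows held 1.64% ± 0.0658 and the 636 pseudogene rows 0.376% ± 0.00730.

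**Figure D1:**
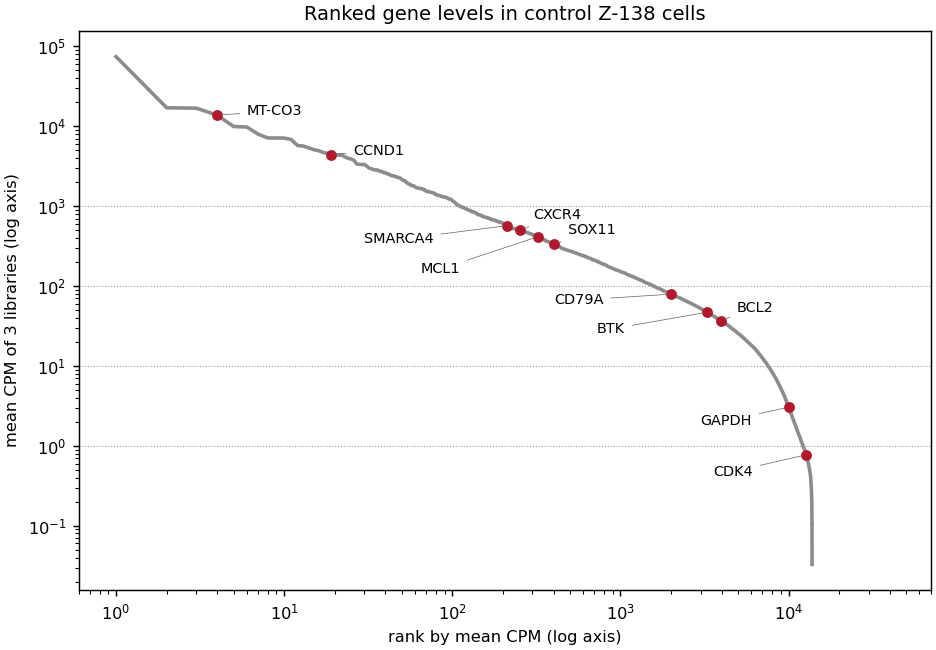
Mean CPM of the 3 control libraries (vertical log axis) against rank over the gene rows with a count (horizontal log axis), with dotted lines at the band limits of 1, 10, 100 and 1000 CPM. CCND1 lies at rank 19, the drug targets BTK and BCL2 lie at ranks 3295 and 3946, and GAPDH and CDK4 lie on the falling right end.

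In all, 29 gene lists with 587 different genes were followed. Of these genes 68 were very high, 165 high, 183 moderate, 59 low and 11 near zero, and 101 had no row. Symbols matched for 482 genes, and 4 more (JCHAIN, NSD2, BICRA and BICRAL) were found through their Ensembl identifier or an older symbol. List medians below take a member without a row at 0, and they stand beside the median of 13.0 CPM over all rows, to which genes without a row do not contribute.

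The label was first set beside defining markers, which were chosen with earlier results of these data known and so give no independent check. The B cell markers MS4A1, CD79A, CD79B, PAX5, EBF1 and POU2AF1 each had a row and stood at 10 CPM or more, and CD22 had no row. Of 3 mantle cell lymphoma markers, CCND1 and SOX11 were present and CD5 had no row.

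Of 32 listed surface antigens of B cells, 21 had a row, 1 of them near zero, and 11 had none. Over all protein-coding genes of the annotation used, 56.0% had a row. Of the other antigens with a row, 2 were high, 11 moderate and 7 low, and the list median was 2.59 CPM. In a bulk library a level is an average over all cells, so fewer cells with a transcript cannot be told apart from less transcript per cell. CXCR4, the receptor that guides B cells to bone marrow and lymph node stroma, was the highest, with 515, 498 and 480.3 CPM. MS4A1, which encodes CD20, the target of rituximab, had 189, 182 and 183 CPM. The paired signalling chains of the B cell receptor were both moderate, CD79A at 82.2, 77.9 and 77.8 CPM and CD79B at 62.6, 62.1 and 64.5 CPM, and their ranges did not overlap. FCRLA, an intracellular Fc receptor-like protein of B cells, reached 86.3 ± 4.84 CPM. The lymph node homing receptor gene CCR7 stood at 46.5 ± 1.64 CPM, and TNFRSF17, which encodes the plasma cell survival receptor BCMA, at 40.4 ± 3.63 CPM.

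Lower down were PTPRC (37.4 ± 0.804 CPM), the pan-leukocyte phosphatase CD45, CD40 (15.9 ± 1.82 CPM), the receptor for T cell help, and CD52 (14.1 ± 1.54 CPM), the target of alemtuzumab. CD38, an ectoenzyme of activated B cells and plasma cells, had 7.39, 7.22 and 6.37 CPM and ROR1, an oncofetal receptor targeted in mantle cell lymphoma, had 7.78, 5.66 and 6.01 CPM. Both were low in all 3 libraries. FCER2 (CD23), whose protein is typically absent from mantle cell lymphoma, had 29, 32 and 16 counts, or 2.87 ± 0.983 CPM. CD37 (1.94 ± 0.439 CPM), a tetraspanin, and TNFRSF13C (1.77 ± 0.412 CPM), the BAFF receptor gene, were also low, while the other BAFF family receptor TNFRSF13B (TACI) was moderate at 19.4 ± 1.96 CPM. CD180, a Toll-like receptor homologue of B cells, was near zero, with 8, 2 and 8 counts. No row carried the symbol or Ensembl identifier of CD5, the T cell antigen that is aberrantly present on most mantle cell lymphomas, or of CD22, the inhibitory B cell lectin. The same was true of CD24, CD27, CR2, FCRL2, CXCR5, MME, LAIR1 and CD200.

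Of 27 B cell transcription factors 26 had a row, 20 of them at 10 CPM or more, and the list median was 35.1 CPM. TCF3, a basic helix-loop-helix factor of early B cell commitment, had 652, 642 and 646 CPM. SPIB, an ETS factor of mature B cells, had 312, 309 and 304 CPM. RUNX3, which represses RUNX1 in B cells, followed with 271 ± 9.62 CPM, against 12.2 ± 1.96 CPM for RUNX1. POU2F2 (170.4 ± 6.94 CPM) and its coactivator POU2AF1 (24.6 ± 1.23 CPM), which act on octamer elements of immunoglobulin genes, differed several-fold in level. PAX5, the guardian of B cell identity, had 79.1, 77.8 and 78.9 CPM. EBF1, which acts upstream of it, had 19.3, 23.2 and 20.05 CPM. IKZF1, which encodes Ikaros, stood at 145 ± 6.13 CPM and its relative IKZF3, which encodes Aiolos, at 9.80 ± 0.495 CPM, a ratio of 14.9 ± 1.34 that ranged from 14.02 to 16.4. Both Ikaros proteins are degraded after lenalidomide, whose receptor gene CRBN stood at 13.0 ± 2.16 CPM.

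The lowest members of this list with a row were IRF8, MEF2C and BCL6. BCL6, the master repressor of the germinal centre, had 23, 12 and 13 counts, or 1.75 ± 0.451 CPM, and MEF2C, which acts with it, had 1.62 ± 0.233 CPM. IRF8, an interferon regulatory factor of germinal centre B cells, had 6, 1 and 1 counts. Its mean was 0.276 CPM, and 0.119 CPM without replicate 1, the library that held most of the counts. MEF2B had no row. Of the factors that plasma cells use, IRF4 had 62.3, 64.6 and 69.7 CPM and XBP1, the factor of the secretory programme, had 35.1 ± 1.74 CPM, while PRDM1, the repressor that completes plasma cell differentiation, had 7.71 ± 0.918 CPM. SPI1, an ETS factor shared with myeloid cells, was low at 3.39 ± 0.406 CPM.

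Of 17 immunoglobulin and recombination genes 3 were high, 4 moderate and 2 near zero, and 8 had no row. IGHM, the constant region of the IgM heavy chain, had 814, 759.8 and 799 CPM. IGHD, which is spliced from the same primary transcript in naive B cells, had 19.2, 17.2 and 16.6 CPM, and IGHM exceeded it 44.9 ± 2.92 times. Light chain constant regions were far lower, IGKC at 39.8, 30.5 and 33.3 CPM and IGLC3 at 17.4, 19.6 and 21.5 CPM, and IGLC1 had only 2, 1 and 1 counts. The lambda constant genes are near-identical copies, and how the counting divided their reads was not tested. JCHAIN, which joins IgM into pentamers, stood at 323 ± 7.36 CPM. IGLL1, a surrogate light chain component of pre-B cells, had 294, 267 and 267 CPM and VPREB3, a chaperone-like relative, 13.5 ± 0.633 CPM, whereas VPREB1 had no row. IGHA1 was near zero, with 6, 3 and 7 counts, and IGHG1, IGLC2 and IGLL5 had no row. RAG1, RAG2 and DNTT, the enzymes of V(D)J recombination, also had no row.

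**Figure D2:**
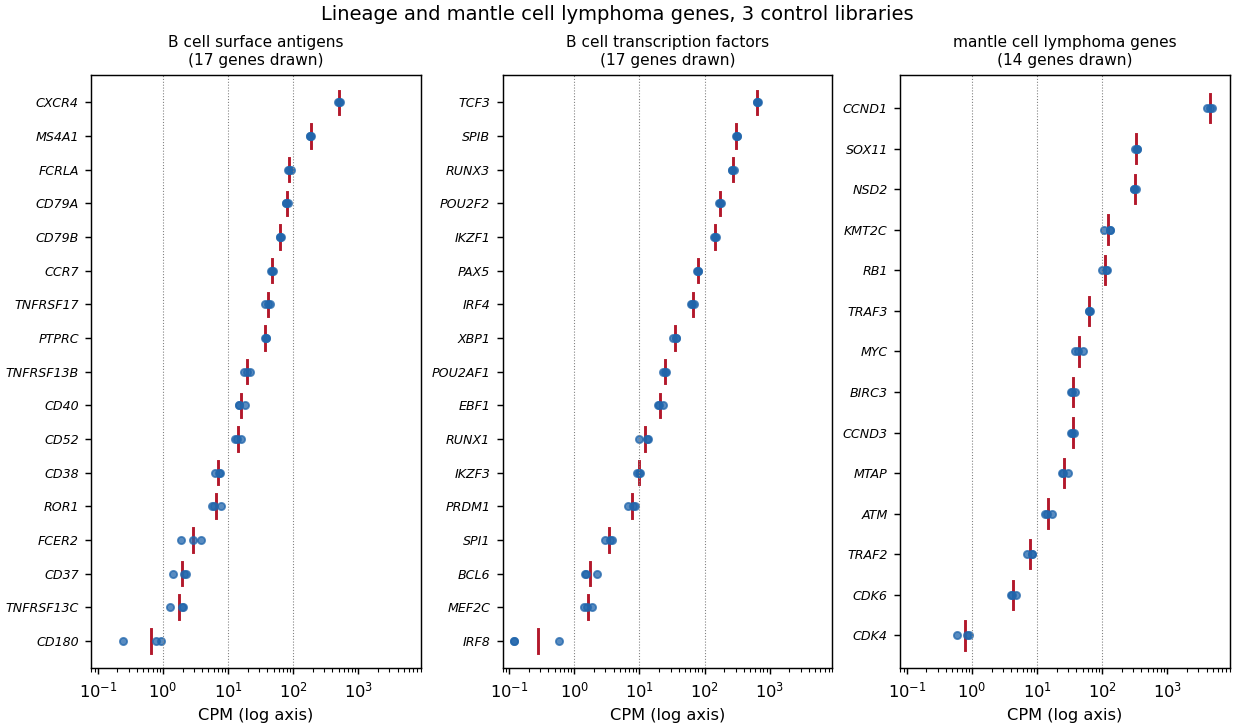
CPM on a log axis for genes of the surface antigen, transcription factor and mantle cell lymphoma lists that are named in the text and had a row, with 1 point per control library and a red bar at the mean. The points of a gene lie close together above 10 CPM and spread for the genes with few counts, such as CD180 and IRF8.

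Promoter sequences of 4 members are shown because CD79A and PAX5 had nearly the same level (79.3 and 78.6 CPM) and a similar share of G and C (63.0% and 65.0%) but very different numbers of CG dinucleotides, and IGLL1, a pre-B cell gene, and BTK, a drug target, also differ in that number, at unlike levels (276 and 47.1 CPM). Each runs 5′ to 3′ on the gene's strand from 250 bases before to 50 bases after the RefSeq start on GRCh38.p14, with CG dinucleotides in capitals. The windows are CD79A at chr19:41877029-41877328 (plus strand), PAX5 at chr9:37034219-37034518 (minus), IGLL1 at chr22:23580241-23580540 (minus) and BTK at chrX:101390747-101391046 (minus).
CD79A: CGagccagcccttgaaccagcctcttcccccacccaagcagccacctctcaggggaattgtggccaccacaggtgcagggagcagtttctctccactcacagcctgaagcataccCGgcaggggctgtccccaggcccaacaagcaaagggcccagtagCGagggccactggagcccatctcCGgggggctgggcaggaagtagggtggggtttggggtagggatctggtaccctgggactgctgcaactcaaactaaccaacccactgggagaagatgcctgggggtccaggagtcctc
PAX5: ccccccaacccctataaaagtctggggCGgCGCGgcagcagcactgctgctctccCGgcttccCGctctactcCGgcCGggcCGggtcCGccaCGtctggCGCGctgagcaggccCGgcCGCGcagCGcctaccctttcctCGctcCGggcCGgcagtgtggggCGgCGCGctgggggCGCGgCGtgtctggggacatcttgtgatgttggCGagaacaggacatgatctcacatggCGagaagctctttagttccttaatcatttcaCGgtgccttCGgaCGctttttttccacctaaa
IGLL1: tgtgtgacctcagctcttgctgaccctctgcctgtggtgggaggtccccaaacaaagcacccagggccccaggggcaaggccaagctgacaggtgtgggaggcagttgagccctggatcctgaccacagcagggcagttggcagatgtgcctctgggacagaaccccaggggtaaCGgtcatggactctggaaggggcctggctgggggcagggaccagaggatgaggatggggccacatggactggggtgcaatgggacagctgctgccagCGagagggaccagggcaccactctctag
BTK: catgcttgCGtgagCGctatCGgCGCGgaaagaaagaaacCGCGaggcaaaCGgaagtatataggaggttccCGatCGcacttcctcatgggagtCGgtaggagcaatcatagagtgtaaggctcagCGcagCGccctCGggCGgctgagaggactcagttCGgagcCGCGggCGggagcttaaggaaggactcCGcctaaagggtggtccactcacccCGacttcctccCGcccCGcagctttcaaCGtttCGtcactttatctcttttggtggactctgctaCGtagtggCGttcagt
CD79A has 4 CG dinucleotides and IGLL1 has 2, while PAX5 has 30 and BTK has 27. Among the 14896 protein-coding genes in the RefSeq table the median was 22. Surface antigens had a median of 6 (22 of 32 genes matched) and immunoglobulin and recombination genes 2 (7 of 17 matched), as against 27 for the B cell transcription factors (23 of 27 matched). These list medians take every member with a promoter in that table, with or without a row. The immunoglobulin and recombination median thus includes VPREB1, RAG1, RAG2 and DNTT, which had no row. For the bands that follow, promoters were joined to levels by symbol only. Genes whose row carries another symbol or only an identifier, JCHAIN and NSD2 among them, therefore count in those bands as without a row. Protein-coding genes without a row under their RefSeq symbol had a median of 10 (6262 promoters), those near zero 21, low 25, moderate 27, high 28 and very high 25.5. The letters TATAAA, read on both strands, occurred in 9.37% of all these promoters and in 15.1% of those unmatched by symbol. They occurred in 4.36% of the moderate band and in 11.8% of the very high band. PAX5 holds them and CD79A, IGLL1 and BTK do not.

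Of the mantle cell lymphoma list, 24 of 29 genes had a row, 19 of them at 10 CPM or more, and the list median was 26.2 CPM. CCND1 had 4816, 4429 and 4052 CPM, each library above the level of ACTB in the same library (2625, 2472 and 2487 CPM). CCND3, the D-type cyclin of normal lymphocytes, had 34.4, 37.3 and 33.7 CPM, and the ratio of CCND1 to CCND3 was 126 ± 11.9, with a range of 119 to 140.1. CCND2 had no row. The cyclin D partner CDK6 had 4.04, 4.81 and 4.13 CPM and CDK4, the other partner and a target of palbociclib, had 9, 7 and 5 counts, or 0.773 ± 0.160 CPM. In the annotation the last 500 exonic bases of CDK4 overlap exons of TSPAN31 on the opposite strand. The 3' end of CCND1, which was very high, overlaps exons of LTO1 on the opposite strand. The part of such overlap in the CDK4 value was not tested.

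SOX11, which is silent in normal B cells, had 341, 339.7 and 317 CPM. NSD2, a histone H3 methyltransferase mutated in mantle cell lymphoma, stood at 314 ± 11.8 CPM, KMT2C at 123 ± 14.9 CPM, and RB1, the brake on entry into S phase, at 110.0 ± 9.31 CPM. MYC stood at 41.8, 37.6 and 50.6 CPM, and ATM, the DNA damage kinase often lost in mantle cell lymphoma, at 13.3, 16.9 and 14.3 CPM. CDKN2A and CDKN2B, the CDK inhibitor genes at a locus frequently deleted in the disease, had no row. MTAP, which lies beside them and is often lost with them, had 23.8, 25.04 and 29.7 CPM. BIRC3 (35.2 ± 2.34 CPM) and TRAF3 (63.4 ± 1.72 CPM), both brakes on alternative NF-κB signalling, were moderate and TRAF2 was low at 7.92 ± 0.731 CPM. Their target MAP3K14, the NIK kinase gene, had no row.

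Markers of other blood and tissue cells were largely without rows. None of the 12 monocyte and macrophage markers and none of the 12 red cell and platelet markers had one, defining genes such as CD14, LYZ, HBB and PPBP included. Of 19 T and NK cell markers, 5 had a row, and their summed level was 26.1 to 28.96 CPM. CD3G, a chain of the T cell receptor complex, made up most of it, with 16.0, 15.8 and 15.2 CPM. CD247 had 8.14 ± 0.888 CPM, CD4 1.89 ± 0.520 CPM, PRF1 1.41 ± 0.862 CPM and CD28 5, 1 and 4 counts, while CD3D, CD3E, CD2, CD7, TRAC and NKG7 had no row. Of 14 stromal, endothelial and epithelial markers only COL1A1 had a row, at 23.3, 19.5 and 19.8 CPM. COL1A2 and COL3A1, with which it is normally co-expressed, had none. The source of the CD3G and COL1A1 counts was not tested. Plasma cell markers were the exception in having rows, 9 of 10, beside 56.0% of all protein-coding genes. Of these 9, 5 stood at 10 CPM or more, beside 54.7% of all rows. They were JCHAIN, MZB1 (134 ± 7.92 CPM), a chaperone of IgM assembly, IRF4, TNFRSF17 and XBP1. The others were low: SDC1 (9.53 ± 0.608 CPM), which encodes CD138, PRDM1, CD38 and DERL3 (3.70 ± 0.634 CPM). SLAMF7 had no row.

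SWI/SNF subunits were expressed almost throughout, 26 of 28 with a row and 24 at 10 CPM or more, with a list median of 50.5 CPM. SMARCC1, the core scaffold, led with 638, 659 and 625 CPM and its paralogue SMARCC2 had 36.0 ± 3.06 CPM, a ratio of 17.9 ± 1.87. SMARCA4 (ENSG00000127616) had 568, 597 and 549 CPM and the alternative ATPase SMARCA2 83.4, 84.6 and 82.8 CPM. SMARCA4 thus exceeded its paralogue 6.83 ± 0.212 times, from 6.63 to 7.05 over the libraries. BCL7A (409 ± 6.16 CPM), a subunit gene often altered in lymphoma, and SMARCD2 (346 ± 18.4 CPM) were also high. Of the subunits that define the complex variants, PBRM1 stood at 193 ± 2.69 CPM, BRD9 at 121 ± 2.41 CPM, ARID2 at 74.8 ± 3.43 CPM, ARID1B at 61.4 ± 5.23 CPM and ARID1A at 53.9 ± 1.72 CPM. SMARCB1, the rhabdoid tumour suppressor, had 90.0 ± 5.71 CPM. BICRA (5.54 ± 0.309 CPM) and SS18 (7.08 ± 0.382 CPM) were low. ACTL6B and DPF3, subunits of the neuronal and muscle forms, had no row.

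All 27 genes of the B cell receptor pathway had a row, and 21 stood at 10 CPM or more, with a list median of 39.9 CPM. The kinases of the proximal cascade lay close together: LYN, the first kinase of the receptor, had 51.8, 51.5 and 57.1 CPM, SYK had 47.3, 46.1 and 50.3 CPM, and BTK (ENSG00000010671), the target of ibrutinib, had 48.4, 47.9 and 44.9 CPM. The ranges of SYK and BTK overlapped and BTK lay below LYN in each library. PIK3CD, the catalytic subunit of PI3-kinase delta and the target of idelalisib, was the highest member, with 239.8, 238 and 232 CPM, and exceeded PIK3CG 21.4 ± 2.39 times. GRB2 and RELA, an adaptor and the main transactivating NF-κB subunit, followed at 116 ± 2.58 and 96.0 ± 4.43 CPM. Downstream of BTK, the adaptor BLNK had 27.4 ± 1.59 CPM, the BTK substrate PLCG2 15.7, 19.6 and 22.3 CPM and PRKCB, a protein kinase C gene, 4.43, 3.61 and 4.60 CPM. MALT1 (13.1 ± 2.34 CPM), a paracaspase gene, and BCL10 (11.6 ± 0.770 CPM), which encodes its partner, were at the lower edge of the moderate band. BLK, a B cell Src kinase, was low at 2.56, 1.69 and 3.54 CPM, 22.3 ± 7.44 times below LYN. PTPN6, a phosphatase that dampens the receptor, was low as well, with 18, 19 and 22 counts.

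Of the other TEC family kinases, TEC had 2.46, 2.29 and 1.65 CPM, 22.6 ± 4.05 times below BTK, and TXK and BMX, further kinases with the cysteine that ibrutinib binds, had no row.

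In the BCL2 family the survival genes were led by MCL1. MCL1, a short-lived protein, had 371, 412 and 463 CPM, BCL2 (ENSG00000171791), the target of venetoclax, had 35.9, 38.3 and 36.8 CPM, and BCL2L1, which encodes BCL-xL, had 22.9, 22.9 and 23.2 CPM. MCL1 exceeded BCL2 11.2 ± 1.2 times (10.3 to 12.6) and BCL2L1 18.1 ± 1.86 times, and BCL2 exceeded BCL2L1 1.61 ± 0.0567 times. These are transcript levels, and protein levels were not measured. BCL2L2 had 10, 11 and 9 counts, or 1.12 ± 0.178 CPM, and BCL2A1 and BCL2L10 had no row. The levels of the drug targets themselves were close, with a BTK to BCL2 ratio of 1.27 ± 0.0667.

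The death-promoting members were led by PMAIP1, which encodes NOXA, the antagonist of MCL1, with 129.9, 122 and 133 CPM. BBC3, which encodes the p53 target PUMA, had 44.1 ± 3.62 CPM, and PMAIP1 exceeded it 2.94 ± 0.371 times. The pore-forming genes BAX and BAK1 had 48.5, 39.8 and 41.3 and 20.5, 21.4 and 21.1 CPM, a ratio of 2.06 ± 0.269. BID (40.3 ± 2.21 CPM), BIK (16.0 ± 0.422 CPM) and BAD (15.1 ± 1.04 CPM) were moderate, and BMF (9.80 ± 1.84 CPM) and HRK (4.40 ± 0.230 CPM) low. BCL2L11, which encodes BIM, a principal killer of lymphocytes, and BOK had no row. Of the 11 listed death genes, 7 were at 10 CPM or more.

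The execution machinery showed a wide range. CYCS, which encodes cytochrome c, stood at 441 ± 15.7 CPM, with 40 pseudogenes named after it in the annotation. CASP2 was the highest caspase gene at 153, 163 and 154 CPM. The initiator of the death receptor pathway CASP8 had 15.4, 17.2 and 20.9 CPM, and the apoptosome pair APAF1 and CASP9 were low at 6.17 ± 0.282 and 6.11 ± 0.546 CPM. DIABLO (15, 2 and 5 counts) and HTRA2 (3, 7 and 10 counts), mitochondrial proteins that relieve caspase inhibition, were near zero, and ENDOG had no row. DIABLO averaged 0.769 CPM, and 0.415 CPM without replicate 1. Among inhibitors of apoptosis, BIRC5 (survivin), a gene of dividing cells, stood at 64.5 ± 3.36 CPM, CFLAR at 54.8 ± 3.09 CPM, BIRC6 at 48.2 ± 1.67 CPM and XIAP at 35.4 ± 2.87 CPM. FAS, the death receptor, had 12, 11 and 8 counts, and its adaptor FADD had 7, 13 and 3 counts, or 0.869 CPM (0.522 CPM without replicate 2). TNFSF10, the gene of the ligand TRAIL, had no row, whereas its receptor gene TNFRSF10A was moderate at 28.2 ± 2.99 CPM. The last exonic bases of DIABLO, HTRA2, FADD, APAF1 and CASP9 each overlap an annotated gene on the opposite strand. Those of DIABLO also overlap AC048338.1 and another annotated entry named DIABLO on its own strand. The part of these overlaps in the values was not tested.

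**Figure D3:**
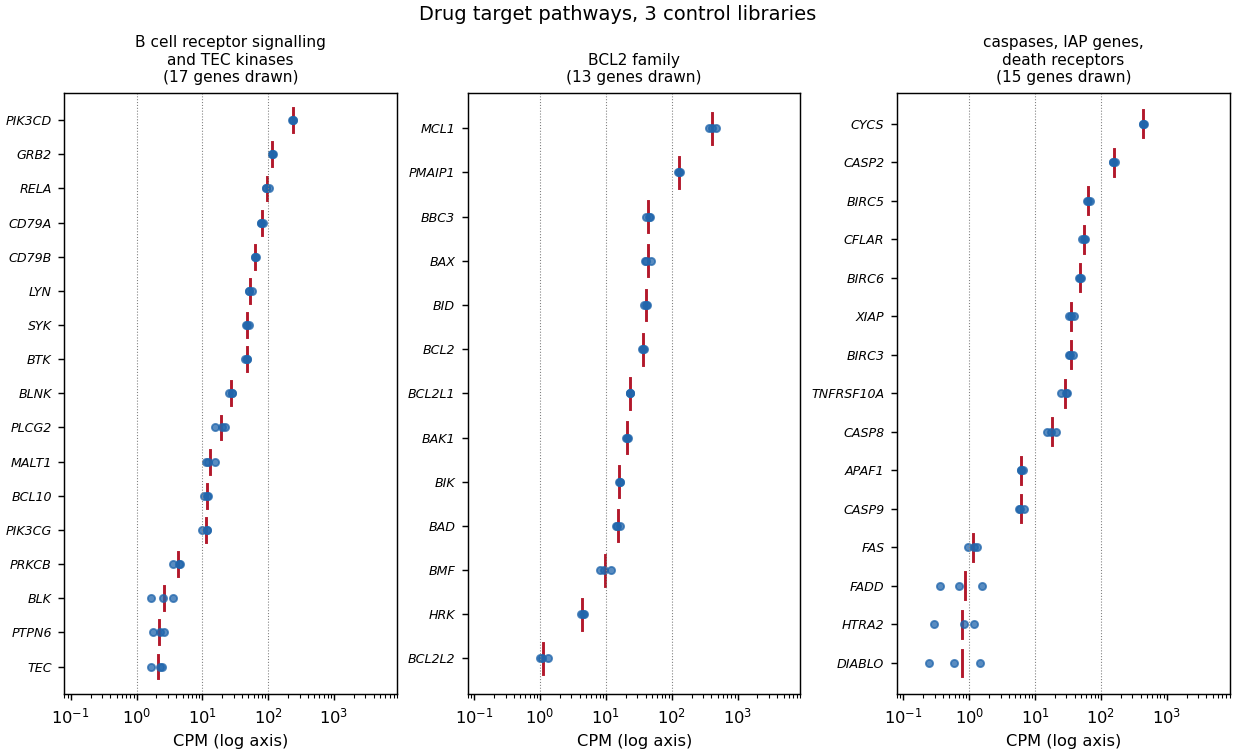
CPM on a log axis for genes of B cell receptor signalling and TEC kinases, of the BCL2 family and of the caspase, IAP and death receptor lists that are named in the text and had a row, with 1 point per control library and a red bar at the mean. PIK3CD, MCL1 and CYCS lead the panels.

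Targets of other lymphoma drugs were mostly abundant, 25 of 30 at 10 CPM or more and 15 at 100 CPM or more, with a list median of 113 CPM. TUBB, the beta tubulin that vincristine acts on, had 3200.2, 3146 and 3175 CPM. TOP2A, the target of doxorubicin, had 1801, 1800.3 and 1809 CPM. PARP1 (551 ± 13.7 CPM) and RRM1 (387 ± 14.9 CPM), a ribonucleotide reductase subunit, followed. EZH2, the target of tazemetostat, stood at 187 ± 3.41 CPM, and PSMB5, the proteasome subunit that bortezomib binds, at 136 ± 2.96 CPM. The glucocorticoid receptor gene NR3C1 was moderate at 25.2, 32.3 and 32.3 CPM. DCK, the kinase that activates cytarabine, had 18.6 ± 0.427 CPM, and CDA, the deaminase that inactivates it, had no row. PRMT5, an arginine methyltransferase, also had none, and in the annotation its 3' end overlaps PRMT5-AS1 on the opposite strand.

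Genes of cell division were high as a group: 18 of 24 stood at 100 CPM or more, with a list median of 162 CPM. MYBL2, the transcription factor of the late cell cycle, had 720.0, 695 and 686 CPM, the replicative helicase subunit MCM7 had 624 ± 22.6 CPM, the mitotic kinase AURKB 513 ± 20.7 CPM and the proliferation antigen MKI67 494, 508 and 428 CPM. FOXM1, which activates many genes of mitosis, was low at 3.45, 3.37 and 2.71 CPM, and its 3' end overlaps ITFG2 (41.9 CPM) on the opposite strand.

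Antigen presentation genes were present in all 22 cases, 20 of them at 10 CPM or more, with a list median of 101 CPM. B2M, the common light chain of class I molecules, had 2405, 2209.7 and 2201 CPM, and HLA-B and HLA-C had 1196 ± 17.8 and 302 ± 6.64 CPM. The class I heavy chains share long stretches of sequence, and how the counting divided their reads is not given in the sources used here. Of the class II genes, the chaperone CD74 had 1539.6, 1412 and 1405 CPM, HLA-DRA 958, 959 and 1041 CPM and CIITA, the master activator of class II genes, 138.3, 141 and 142 CPM. HLA-DOB and HLA-DRB5 were low, at 2.13 ± 0.402 and 2.66 ± 0.538 CPM.

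Of 26 glycolytic genes 9 were high and 9 moderate, with a list median of 30.1 CPM, and 5 had no row. LDHB, a lactate dehydrogenase subunit, led with 859, 826 and 866 CPM and exceeded LDHA (363, 339 and 334 CPM) 2.47 ± 0.115 times. ENO1 had 669.8 ± 27.2 CPM, PKM 592 ± 49.2 CPM, ALDOA 522 ± 20.4 CPM and TPI1 384 ± 8.72 CPM. Hexokinases, which phosphorylate glucose on entry, were lower: HK2 had 34.3, 34.5 and 36.1 CPM and HK1 12.7, 14.8 and 13.7 CPM, a ratio of 2.56 ± 0.195. Of the glucose transporters, SLC2A1 stood at 14.5, 14.1 and 17.6 CPM and SLC2A3 was near zero, with 3, 6 and 3 counts. SLC16A1, which exports lactate, had 99.2 ± 7.16 CPM, 9.30 ± 0.691 times the level of SLC16A3. HK3, ALDOC and PKLR, isoenzymes of other tissues, had no row. GAPDH, a standard reference gene, had 30, 25 and 27 counts, or 3.05 ± 0.119 CPM. In the pentose phosphate pathway TALDO1 (277 ± 5.53 CPM) and TKT (273 ± 16.5 CPM) of the non-oxidative branch were high.

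In the tricarboxylic acid cycle MDH2 (454, 458 and 457 CPM) and IDH2 (361, 369.5 and 405 CPM) led, followed by SDHA (192 ± 3.64 CPM) and CS (154 ± 10.0 CPM), the citrate synthase gene. SDHD (5.22, 5.30 and 3.89 CPM) and IDH3A (6.83 ± 1.43 CPM) were low, each a gene of a required step, and PC, which refills the cycle from pyruvate, had no row. In the annotation the 3' end of IDH3A overlaps ACSBG1, and the part of that overlap in its value was not tested.

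Amino acid and one-carbon genes had rows in all 19 cases, 18 at 10 CPM or more, with a list median of 68.1 CPM. SLC7A5, the large neutral amino acid transporter, had 591, 526 and 501 CPM, and its heavy chain SLC3A2 126 ± 9.22 CPM. The mitochondrial serine enzyme SHMT2 had 476, 470.2 and 506 CPM and exceeded its cytosolic counterpart SHMT1 23.6 ± 2.03 times. TYMS, which makes thymidylate, had 311 ± 9.53 CPM, the glutamine transporter SLC38A2 219.5 ± 12.5 CPM, the mitochondrial folate enzyme MTHFD2 179.9 ± 11.47 CPM and the asparagine synthetase gene ASNS 171 ± 9.69 CPM. In serine synthesis PHGDH stood at 118, 108 and 105 CPM, PSPH at 26.7 ± 0.810 CPM and PSAT1 at 19.4, 16.9 and 20.05 CPM.

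Lipid synthesis genes were mostly moderate. FASN, the fatty acid synthase gene, had 249, 239 and 249 CPM, the desaturase SCD 139, 151 and 147 CPM, ACSL3 132 ± 0.802 CPM and the citrate lyase gene ACLY 130.4 ± 2.92 CPM. SCD exceeded SCD5 11.4 ± 2.87 times, and ACACA exceeded ACACB 5.70 ± 1.32 times. Of 16 cholesterol genes 13 were moderate and none had a mean above 100 CPM. Their regulator SREBF2 stood at 97.6, 95.5 and 104 CPM and INSIG1, which helps to retain it in the endoplasmic reticulum, at 64.0 ± 0.925 CPM. CYP51A1, the lanosterol demethylase gene, had no row. The carnitine transferase gene CPT1A had 51.7 ± 2.2 CPM, 41.5 ± 8.01 times CPT1B, and CPT1C had no row.

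Of 30 nuclear genes of oxidative phosphorylation 22 were high and 5 moderate, with a list median of 169 CPM. ATP5O, an ATP synthase subunit, had 671, 648 and 684 CPM, UQCRB of complex III 548 ± 12.5 CPM, ATP5B 527 ± 21.1 CPM and COX6C 481 ± 34.1 CPM. NDUFV2, a core subunit of complex I, was the only low member, at 6.80, 4.21 and 4.95 CPM. In the annotation its 3' end overlaps AP005263.1, and the part of that overlap in its value was not tested. COX4I2 and COX6A2, isoforms of lung and muscle, had no row. The 13 mitochondrially encoded mRNAs ran from MT-ND4L at 260.2 ± 8.69 CPM to MT-CO3 at 13794 ± 741 CPM. MT-CO1, a subunit of the same oxidase as MT-CO3, had 756, 779 and 810.2 CPM, and MT-CO3 exceeded it 17.7 ± 1.52 times.

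**Figure D4:**
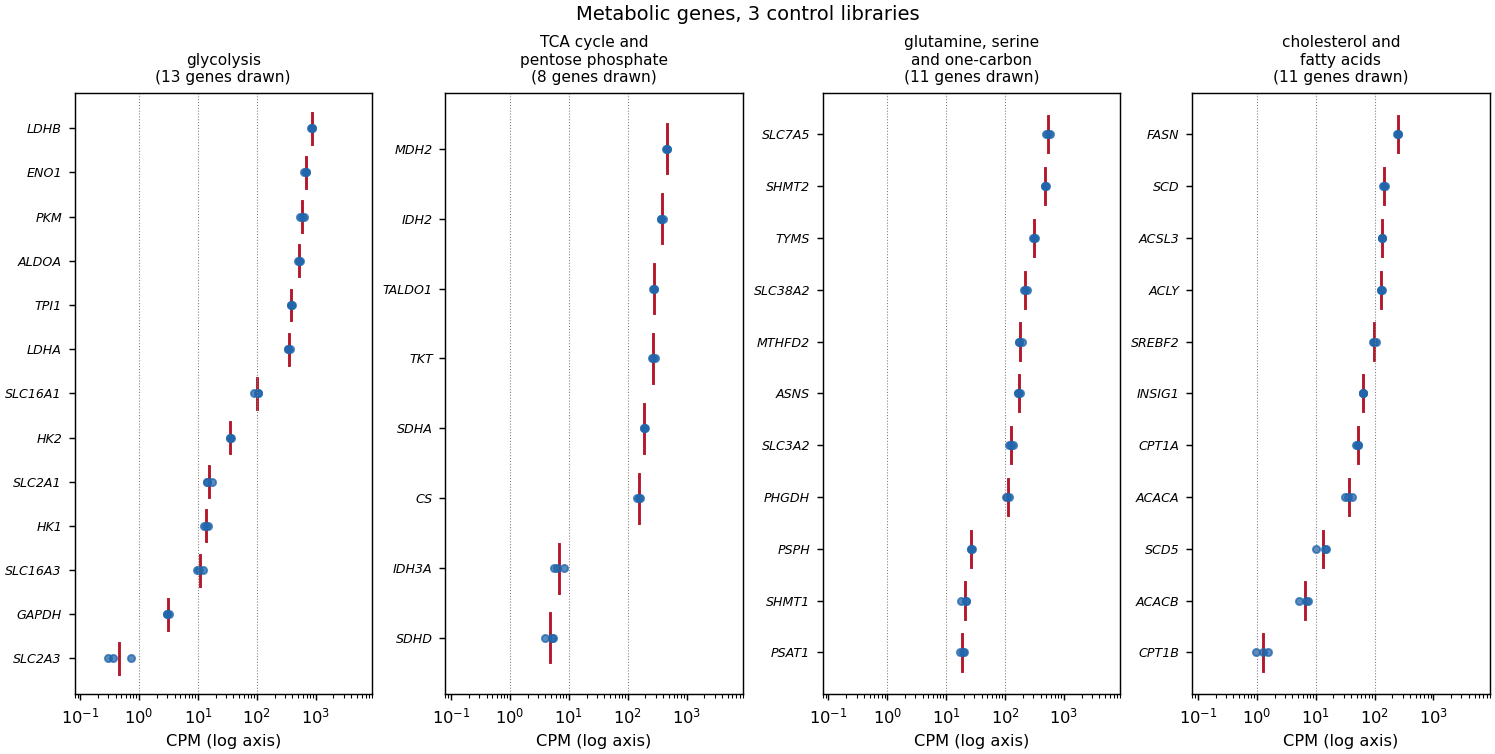
CPM on a log axis for metabolic genes that are named in the text and had a row, with 1 point per control library and a red bar at the mean. LDHB, MDH2, SLC7A5 and FASN lead the 4 panels, and SLC2A3 is the only gene drawn with a mean under 1 CPM.

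Several genes that nearly every human cell transcribes were low or without a row. Of the 79 cytosolic ribosomal protein genes, 42 were very high and 29 high, with a list median of 1157 CPM. A further 4 were low, RPL21 (65, 62 and 55 counts) and RPS26 (85, 65 and 60 counts) among them, RPS27 (17.8, 24.9 and 28.5 CPM), RPL9 (46.5, 42.7 and 43.0 CPM) and RPSA (81.8, 71.1 and 73.5 CPM) were moderate, and RPL17 had no row. All of these genes encode subunits of the same particle as RPL27A. Of 40 reference genes 38 were at 10 CPM or more, GAPDH was low and FTH1, the ferritin heavy chain gene, had no row. EEF1A1, an elongation factor gene among the most abundant in many cells, had 342, 305 and 307 CPM, below EEF2 (1478, 1469 and 1519.9 CPM) in each library. TUBA1B had 21.0, 26.6 and 28.3 CPM and TUBA1A exceeded it 9.63 ± 0.880 times. A low value for such a gene is given as measured and is not a statement on its transcription.

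Annotated properties that could bear on counting were set beside these values. In the annotation 62 pseudogenes are named after GAPDH, 66 after RPL21, 30 after RPS26, 74 after RPSA and 39 after EEF1A1. High genes had them too, with 88 after PPIA (2342 ± 81.5 CPM) and 17 after RPS27A. The 3' end of GAPDH overlaps AC006064.4 and that of FTH1 overlaps BEST1 (0.771 CPM), both on the opposite strand, and RPL17 overlaps the read-through gene RPL17-C18orf32 on its own strand. Over 8 lists of broadly used functions, put together after their values were seen, 30 genes were under 10 CPM or had no row and 201 were at 10 CPM or more. At least 5 pseudogenes were found for 7 (23.3%) of the former and 71 (35.3%) of the latter, which include 74 ribosomal protein genes. Among ribosomal protein genes, the median was 1519 CPM with 1 to 9 pseudogenes (38 rows) and 1157 CPM with 10 to 19 (23 rows). It was 701 CPM with 20 or more (15 rows), and the 1 gene with 0 pseudogenes stood at 351 CPM. A 3' end that overlaps exons of another gene on the opposite strand was found for 16 (53.3%) of the 30 genes and 23 (11.4%) of the 201 genes. The 30 genes include HK3, ALDOC, PKLR and COX6A2, named above as forms of other tissues, each with an overlapping gene at its 3' end. Their absence from the table therefore adds to the difference between these shares. The sources used here do not give the strand setting of the counting, and the part of either property in the low values was not tested.

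**Figure D5:**
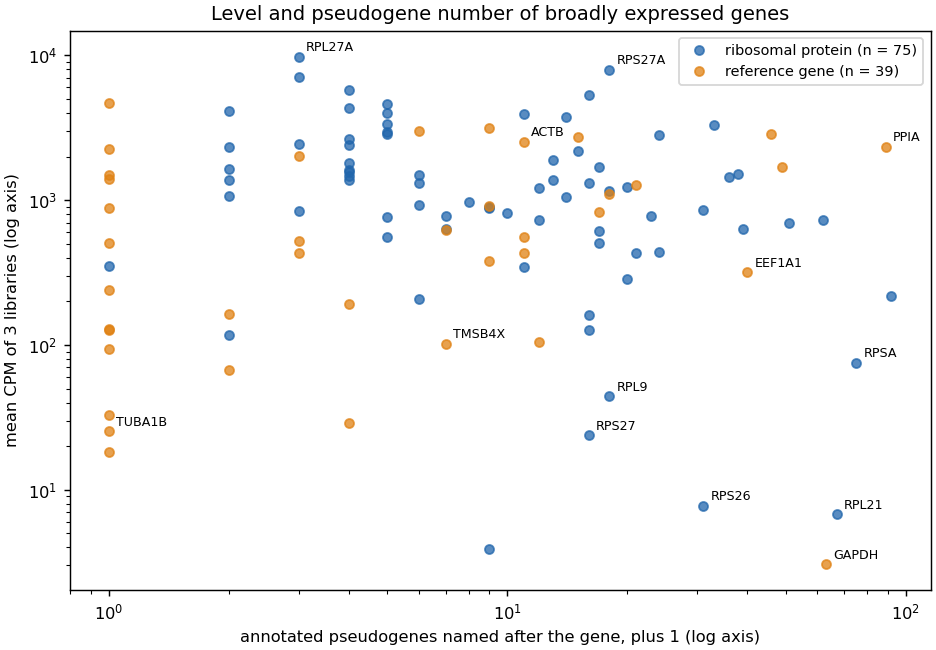
Mean CPM (vertical log axis) against the number of annotated pseudogenes named after the gene, plus 1 (horizontal log axis), for genes with a row and a match in the annotation. Drawn are 75 ribosomal protein genes and 39 reference genes, and a gene in both lists is drawn as a reference gene only. GAPDH, RPL21 and RPS26 lie low with many pseudogenes, and PPIA lies high with the largest number marked by name.

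The 3 libraries were close to one another. Over the 7566 rows of 10 CPM or more, the median coefficient of variation (CV, the SD as a percentage of the mean) was 5.95%. The median counting value, the square root of the expected counting variance as a percentage of the mean, was 5.36%. A median CV from counting error alone over 3 libraries lies below that value and was not computed. The observed median CV was 6.74% in the moderate band and 3.83% in the high band. It was 3.24% in the very high band, where the counting value was 0.771%. A CV over 20% was found for 137 rows (1.81%). Log2 CPM correlated across rows at Pearson's r of 0.993 to 0.995 between libraries, across genes that are not independent replicates, and between 1 and 2 rows per pair differed by more than 2-fold. A chi-square over rows gave 2.87 to 4.88 per degree of freedom between libraries, where counting error alone gives about 1, so no pair agreed within counting noise. Whether the libraries come from separate cultures cannot be told from this value.

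The widest spread was found for FOS and EGR1, both immediate early genes, which are transcribed within minutes of a growth factor signal. FOS, a subunit of the AP-1 factor, had 7.98, 15.5 and 27.7 CPM, a CV of 58.3% against 8.11% for counting. EGR1, a zinc finger factor, had 54.7, 126 and 149 CPM, a CV of 44.7%. Both were lowest in replicate 1 and highest in replicate 3. The next 8 were SNX29P2 (74.4, 100.1 and 45.0 CPM), ENSG00000259891, ANKHD1, RPL7AP66, RAD54L, ENSG00000238311, MYNN and LLGL1, with CVs from 37.7 down to 30.9%. SNX29P2, ENSG00000259891, ANKHD1 and ENSG00000238311 were lowest in replicate 3. None of these 10 belonged to the gene lists.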

How the data were processed

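RNA of Z-138 cells was measured in 12 libraries in 4 groups of 3, of which the 3 control libraries in DMSO were analysed. Per the labels' protocols, total RNA was extracted on Qiagen RNeasy columns and sequenced from Lexogen QuantSeq libraries, which cover transcript 3' ends. HISAT2, HTSeq, bcl2fastq (2.17.1.14) and the build hg19 are listed in the submitters' processing notes. The sources used here do not give other tool versions, the gene annotation, how strand was handled or any filter on rows. Whole-number gene counts without normalization were deposited by the authors as 1 table, and the lowest row total over the 11 columns mapped to samples was 13 counts. The name of 1 further column did not single out a sample, and that column was not used. The table has 13820 rows, of which 1656 carry only an Ensembl identifier.

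Each count was divided by its library's total over all rows and scaled to a total of 1000000 (CPM), without further scaling. Means and SDs over the 3 libraries were computed in Python 3.11.15 (pandas 2.3.3) and the calculation was tested on simulated data. No comparison between groups was made and no p-value was computed. The gene lists and the genes followed were chosen with earlier results of these data known. The 28 gene pairs whose ratios were computed and the 8 lists of broadly used functions were chosen after the values were seen. In each list the text names key genes marked by hand, the 4 highest, and members under 1 CPM or without a row. It adds the 20 highest rows, the 10 most variable rows of 10 CPM or more, and ribosomal protein or reference genes under 10 CPM, with further members for context. The list counts include some genes that are not reported here.

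Gene types, overlaps of the last 500 exonic bases and pseudogene names came from GENCODE 29 (GRCh38), a build other than the authors', and matched 13397 rows (96.9%) by identifier. No hg19 coordinates are given. Promoter sequences are from RefSeq on GRCh38.p14, counted as letters only. Alternatives were TMM and RLE scaling (edgeR 4.0.16 in R 4.3.3), leaving out the 18S and 28S rows, leaving out each library, other limits for near zero, rows with 10 counts or more in each library, rows with a symbol, and spread among rows of 100 CPM or more.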

Additional observations from a re-analysis of the deposited data

How the results depend on the processing

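The counts of rows at 1, 10, 100 and 1000 CPM or more stayed within 1.5 times of the main value under TMM and RLE scaling, without the 18S and 28S rows and without each library. Leaving out the 18S and 28S rows lowered the share of the first 10 rows from 17.1 to 10.2%, of the first 100 from 38.9 to 33.0% and of the first 1000 from 68.9 to 65.8%. By construction it raised every other level, by a median of 1.10 times. The median CV among rows of 10 CPM or more, 5.95% in the main calculation, was 6.08% without those rows, 5.998% with TMM and 5.98% with RLE, and 4.40 to 5.24% with 1 library left out. The median ratio of variance to counting variance, 1.44, was 1.44, 1.45 and 1.46 under the same settings and 0.846 to 1.16 with 1 library left out. Among rows of 100 CPM or more these medians were 3.76% and 2.82. Counting error alone also gives lower medians when 1 library is left out, so the lower values do not show closer agreement. Rows under 1 CPM numbered 1609, 1011 when only rows with a symbol were used, and 0, by construction, when 10 counts were required in each library. Near-zero genes of the lists numbered 11 at 1 CPM, 4 at 0.5 CPM, 20 at 2 CPM and 7 when the highest library had to be under 1 CPM. Of the 116 key genes followed singly, each moved by less than 1.5 times with 1 library left out except IRF8, at 0.119 CPM without replicate 1 against 0.276. Of the other near-zero genes, DIABLO (0.415 CPM without replicate 1) and FADD (0.522 CPM without replicate 2) also moved further. TMM and RLE moved the key genes by factors of 0.997 to 1.005. No paired analysis was possible because 1 group was described and no test was run. At this depth 1 CPM rests on 8.31 to 10.2 counts, so levels under it are imprecise, and a gene without a row has no measured level.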

Other observations

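Over all 19864 protein-coding genes of the annotation used, the overlap of 3' ends was set beside level and beside the presence of a row. Rows whose last 500 exonic bases overlap exons on the opposite strand only had a median of 12.6 CPM (1360 rows), and rows with no overlap 21.2 CPM (9319 rows). Of these rows 8.60% and 6.17% stood under 1 CPM. A row was present for 66.8% of genes with overlap on the opposite strand only and for 56.1% of those with none. Genes under 1 CPM or without a row made up 38.9% of the former and 47.4% of the latter, so among all genes the order was opposite to that among rows. Where overlap was on the same strand only, 36.5% of genes had a row, with a median of 13.1 CPM (382 rows). With overlap on both strands, 44.3% of 158 genes had a row, with a median of 8.88 CPM (70 rows), and 63.3% were under 1 CPM or without a row. The shares given earlier for lists of broadly used functions count such genes as overlapping on the opposite strand. The part of the overlap in these levels was not tested.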
